A study of Mus musculus with 72 samples.

Results

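The cytochrome P450 genes of families 1 to 4 were examined in liver and gonads of mice descended from IVF. Members were all gene symbols in the liver count tables made of Cyp, a family number from 1 to 4, a subfamily letter, a gene number and at most 1 further letter, which gave 80 of 35976 symbols, and no measured value entered this choice. In the study, F1 pups came either from IVF with superovulated CF-1 females and SJL/B6 sperm, followed by embryo culture and transfer to pseudopregnant recipients, or from natural mating of the same strains (naturals). F1 males of each origin were then mated with CF-1 females, so that the F2 animals of both groups were themselves naturally conceived, the F2 "IVF" group being those with an IVF-conceived sire. The SJL/B6 males of the F1 crosses carried a GFP transgene in heterozygous form. The F2 liver came from 12-week-old males (5 naturals, 5 IVF) and 12-week-old females (5 naturals, 6 IVF). The gonads were F1 testis at E18.5 (4 naturals, 6 IVF), 12 weeks (5 and 5) and 39 weeks (4 and 6), F2 testis at 12 weeks (5 naturals, 7 IVF) and F2 ovary at 12 weeks (4 naturals, 5 IVF), making 72 libraries in 7 tables. The labels do not say which F2 animals had the same sire or litter, so the p-values measure the spread between these libraries.

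Enzymes of these families are haem proteins, mostly anchored in the endoplasmic reticulum, that oxidise their substrates with electrons passed on from NADPH by P450 oxidoreductase (Por). In liver they act on drugs, plant and environmental compounds, steroids and fatty acids, and many are induced through the receptors AHR (Cyp1a), CAR (Cyp2b), PXR (Cyp3a) and PPARα (Cyp4a). A subset of the mouse genes differs strongly between male and female liver, a difference set largely by the male and female patterns of growth hormone release.

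Levels are normalised CPM, in which library size was scaled by the trimmed mean of M-values (TMM), with the 4 liver groups on a common scale. A gene was called differentially expressed (DEG) when it changed by more than 1.5-fold and edgeR's quasi-likelihood test, adjusted over all genes by Benjamini-Hochberg, gave a value under 0.05. Each ± after a log2 value is a standard error. Liver libraries held 543745 to 90441392 counts. All 11 listed hepatocyte markers found in the table were detected in every liver group, and their summed level was 89300 to 119000 normalised CPM in male naturals, 113000 to 165000 in male IVF, 186000 to 273000 in female naturals and 122000 to 148000 in female IVF. Fewer cells of a type and less RNA per cell cannot be told apart in bulk tissue. Groups also stood apart in measures of library make-up. The share of counts on the mitochondrial genes ND1, COX1, ATP6 and CYTB, a part of all mitochondrial counts, was compared. It was 1.727 to 2.497% in male naturals against 3.844 to 10.898% in male IVF. In female naturals it was 3.371 to 8.201% against 1.322 to 2.315% in female IVF. Conception group and these measures cannot be told apart in either liver, and sex cannot be told apart from count table. The male IVF library 3 was the shallowest of the series (543745 counts) and stood apart from the other male libraries in female-biased transcripts, so results that rest on it are given with and without it.

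The members made up 2.26 to 3.33% of liver counts. In the naturals, 5 members in male liver and 7 in female liver had a mean of at least 1000 normalised CPM. Per kilobase of transcript, the highest in both sexes was Cyp2e1, which oxidises ethanol and other small molecules, at 3310 normalised CPM per kb in male and 5470 in female naturals. In male naturals it was followed by Cyp2f2 (1800 per kb), Cyp2d9 (1250) and Cyp3a11 (1140), and in female naturals by Cyp3a11 (1600), the main PXR-induced drug-metabolising 3A enzyme, and Cyp4a10 (796), a PPARα target. At the other end, 6 members (Cyp2c65, Cyp2c66, Cyp2j12, Cyp2w1, Cyp4a30b and Cyp4x1) had no counts in any liver library. The AHR target Cyp1a1 stayed at no more than 2 normalised CPM throughout, while Cyp1a2, the constitutive hepatic member of that subfamily, had a mean of 664 in male naturals.

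**Figure D1:**
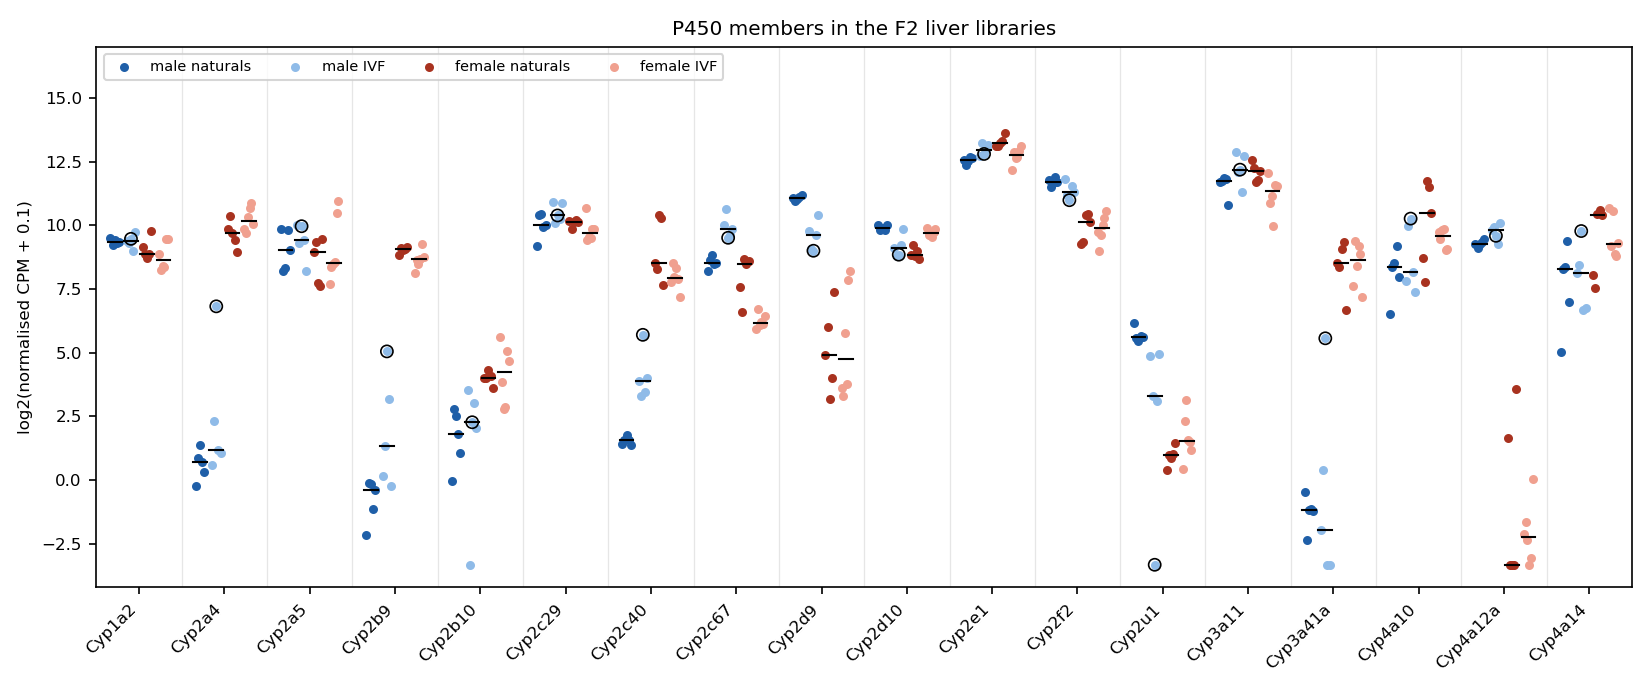
Levels of 18 members in the 21 F2 liver libraries, as log2 of normalised CPM plus 0.1 on the vertical axis, with each point a library, short lines the group medians and a black ring on male IVF 3. By median, Cyp2e1 lies at the top in all groups, and Cyp3a11 is also high in each. Cyp2a4, Cyp2b9, Cyp2c40 and Cyp3a41a are high in females, and Cyp2d9, Cyp2u1 and Cyp4a12a are high in males.

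The sex difference was the widest contrast among the members. In naturals, 22 of 60 tested members were higher and 12 lower in female than in male liver, against 19.6% and 22.6% of the 13073 genes tested, and 35 members did not overlap between the sexes, against 38.8% of genes. In the IVF group, 17 were higher and 13 lower in females, against 18.2% and 14.4% of genes. The median female-minus-male log2 difference of the members was 0.38 in naturals and 0.35 in IVF, against 0.02 and 0.05 over all genes. All 13 members of a list of female-biased P450 genes were higher in females in both conception groups, and all 4 of a male-biased list (Cyp2d9, Cyp2u1, Cyp4a12a and Cyp4a12b) were lower. These lists were chosen with earlier results of the same data known, so the match is a description and not independent support. With library totals and no scaling factor, 18 members were higher and 16 lower in naturals, against 1185 and 4493 of 13073 genes. In IVF they were 25 and 11, against 3353 and 1061 genes. The median over all genes was then shifted to -0.37 in naturals and 0.27 in IVF. With each library's trend of level on GC content removed (described below), 16 were higher and 10 lower in naturals, against 1826 and 1532 genes. In IVF the split was 15 and 11, against 904 and 1749 genes. The naturals and IVF contrasts share no library but share the estimate of dispersion. Members called in both numbered 21, and 20 of these had the same direction. The exception was Cyp2j5, an arachidonic acid epoxygenase. It was higher in females among naturals (log2 difference 0.69 ± 0.167 SE, edgeR adjusted p = 0.00136) and lower in females among IVF animals (-0.89 ± 0.160, adjusted p = 9.49e-05). The call in naturals depended on the processing. No Cyp2j member was called there with library totals (median log2 difference 0.01) or with the GC trend removed (-0.16).

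Cyp2a4 and Cyp2a5 show how narrow this sex bias can be. Cyp2a4, a steroid 15α-hydroxylase, read 0.742, 1.74, 2.51, 1.52 and 1.16 normalised CPM in male naturals and 934, 1330, 822, 689 and 493 in female naturals. The groups were far apart (female minus male log2 9.10 ± 1.108, edgeR adjusted p = 4.66e-06). The coumarin 7-hydroxylase Cyp2a5 read 923, 297, 325, 898 and 523 in male naturals and 501, 658, 215, 197 and 712 in female naturals. Here the sexes overlapped fully (log2 -0.38, adjusted p = 0.637). Their promoters are shown because so near a pair of copies differed so much in level. The windows run from 250 bases before to 50 bases after the start in RefSeq (GRCm38.p6), Cyp2a4 at chr7:26306942-26307241 and Cyp2a5 at chr7:26835089-26835388, both on the plus strand. Capitals mark 5 substitutions and, near a window end, 1 base left without a partner by a shift between the windows. This leaves 294 of 300 bases (98.0%) identical.
Cyp2a4: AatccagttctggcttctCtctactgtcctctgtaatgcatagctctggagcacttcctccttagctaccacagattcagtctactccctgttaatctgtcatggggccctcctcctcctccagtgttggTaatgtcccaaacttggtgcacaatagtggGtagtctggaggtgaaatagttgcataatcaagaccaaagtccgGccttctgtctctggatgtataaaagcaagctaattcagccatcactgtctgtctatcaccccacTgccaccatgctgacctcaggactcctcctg
Cyp2a5: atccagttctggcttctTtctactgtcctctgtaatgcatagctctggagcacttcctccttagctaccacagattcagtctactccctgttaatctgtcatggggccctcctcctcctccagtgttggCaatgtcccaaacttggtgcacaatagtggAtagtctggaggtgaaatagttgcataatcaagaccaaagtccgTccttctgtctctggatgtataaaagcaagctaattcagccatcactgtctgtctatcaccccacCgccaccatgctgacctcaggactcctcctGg
Of the 31-base words in their transcripts, 58.1% of those of Cyp2a4 and 58.5% of those of Cyp2a5 occur in some other gene, and 55.9% and 48.2% occur in the other of the pair, so reads may be divided between them with uncertainty.

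The Cyp2c cluster on chromosome 19 and the Cyp3a cluster on chromosome 5 held most of the female-biased members. In naturals, 8 of 13 tested Cyp2c members and 6 of 8 tested Cyp3a members were higher in females, and none of either was lower. With the GC trend removed, 7 Cyp2c members were higher and 1 lower, and 4 Cyp3a members were higher. Cyp2c40, which hydroxylates arachidonic acid, read 2.6, 2.91, 3.31, 2.88 and 2.48 normalised CPM in male naturals and 372, 311, 1360, 1260 and 204 in female naturals (log2 7.94 ± 0.624, edgeR adjusted p = 4.43e-08). Its neighbour Cyp2c69 read 0.247, 0.678, 1.48, 0.5 and 0.828 in male naturals and 275, 312, 2480, 2310 and 88 in female naturals (10.55 ± 1.809, adjusted p = 0.000136). Cyp2c39 read 17.6, 40.6, 39, 52.6 and 39.8 in male naturals and 1030, 777, 1100, 1020 and 1150 in female naturals (4.75, adjusted p = 3.28e-07). All 3 were low in every male natural, and within females Cyp2c40 and Cyp2c69 ranged over several-fold with female naturals 3 and 4 highest. Cyp2c67, by contrast, read 292, 400, 459, 360 and 363 in male naturals and 193, 96.2, 405, 358 and 383 in female naturals, so that the sexes overlapped (-0.39 ± 0.280, adjusted p = 0.265). Cyp3a41a, a female-specific 3A enzyme, read 0.619, 0.0969, 0.342, 0.36 and 0.331 in male naturals and 366, 333, 544, 656 and 102 in female naturals (10.16 ± 1.229, adjusted p = 4.43e-06).

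In naturals, levels differed by sex in Cyp2c40, Cyp2c69 and Cyp3a41a but not in Cyp2c67. In IVF, Cyp2c67 was lower in females than in males (log2 -3.71, edgeR adjusted p = 2.86e-09). The promoters of these 4 members are shown because all have the searched letters of the liver factor HNF4A in common. All lie on the minus strand of GRCm38.p6 in RefSeq, Cyp2c40 at chr19:39812765-39813064, Cyp2c67 at chr19:39648993-39649292, Cyp2c69 at chr19:39886720-39887019 and Cyp3a41a at chr5:145720087-145720386. Capitals mark the searched letters of HNF4A (CAAAGTCCA) or FOXA (TGTTTAC), in either orientation.
Cyp2c40: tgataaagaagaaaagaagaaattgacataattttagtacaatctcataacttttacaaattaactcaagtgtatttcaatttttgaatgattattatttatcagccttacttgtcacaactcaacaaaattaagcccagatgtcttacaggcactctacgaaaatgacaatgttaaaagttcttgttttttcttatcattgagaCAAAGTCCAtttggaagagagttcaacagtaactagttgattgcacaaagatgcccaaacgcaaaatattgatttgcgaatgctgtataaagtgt
Cyp2c67: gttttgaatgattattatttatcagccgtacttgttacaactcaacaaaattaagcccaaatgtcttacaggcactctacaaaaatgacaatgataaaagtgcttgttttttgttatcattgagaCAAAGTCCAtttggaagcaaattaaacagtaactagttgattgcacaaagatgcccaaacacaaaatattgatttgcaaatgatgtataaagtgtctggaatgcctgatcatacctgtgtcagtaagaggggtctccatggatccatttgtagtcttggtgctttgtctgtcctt
Cyp2c69: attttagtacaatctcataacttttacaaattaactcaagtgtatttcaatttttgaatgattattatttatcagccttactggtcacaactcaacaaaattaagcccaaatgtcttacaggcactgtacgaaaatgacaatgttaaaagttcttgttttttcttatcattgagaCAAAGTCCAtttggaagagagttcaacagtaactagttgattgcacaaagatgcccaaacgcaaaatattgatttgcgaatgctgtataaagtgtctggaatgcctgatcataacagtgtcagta
Cyp3a41a: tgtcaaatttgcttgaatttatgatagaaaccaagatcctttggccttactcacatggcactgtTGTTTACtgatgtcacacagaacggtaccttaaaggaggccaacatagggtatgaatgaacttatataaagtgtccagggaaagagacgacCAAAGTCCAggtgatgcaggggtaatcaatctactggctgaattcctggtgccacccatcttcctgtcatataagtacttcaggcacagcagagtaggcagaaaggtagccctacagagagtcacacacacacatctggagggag
Aligned over whole windows of 300 bases, Cyp2c40 and Cyp2c69 had 267 identical bases (89.0%) and Cyp2c67 and Cyp2c69 had 232 (77.3%). Relative to the annotated start, CAAAGTCCA began at -45 in Cyp2c40, -75 in Cyp2c69 and -125 in Cyp2c67. The windows are thus shifted against each other, and bases without a partner were counted as not identical. These percentages therefore understate the likeness of the stretch that the windows share. Across the 72 promoters found for 65 members, CAAAGTCCA occurred on either strand in 10 (13.9%), against 0.475% of 32851 promoters of all genes. These 10 were Cyp2c40, Cyp2c65, Cyp2c67, Cyp2c68, Cyp2c69, Cyp2c70, Cyp3a11, Cyp3a16, Cyp3a41a and Cyp3a41b, which are copies within 2 clusters and so do not count as separate occurrences. TGTTTAC occurred in 9 (12.5%, against 3.65% of all promoters), TTCNNNGAA (STAT5) in 4 (5.56%, against 8.30%) and GCGTG, the core bound by AHR, in 14 (19.4%, against 32.4%). Both strands were searched for each, no searched motif contains the letters of another, and a match describes the sequence only.

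**Figure D2:**
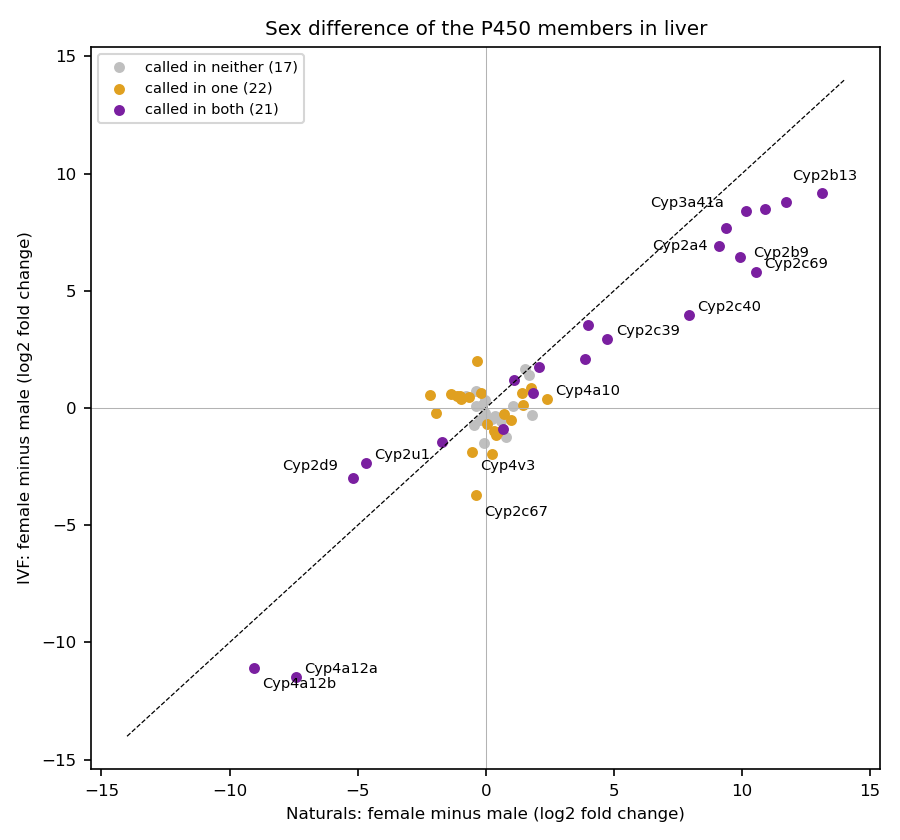
Female-minus-male log2 fold change of the 60 tested members in naturals (horizontal) and in IVF (vertical), coloured by whether a member was called in neither (17), one (22) or both (21) contrasts, with the dashed line marking equal values. Cyp2b9, Cyp2c40 and Cyp2c69 lie below the line on the right, and Cyp2c67 lies at -0.39 in naturals and at -3.71 in IVF.

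Members of the male-biased list were high in males of both groups. Cyp2d9, a male-specific testosterone 16α-hydroxylase, read 2130, 1990, 2080, 2200 and 2310 normalised CPM in male naturals and 30.3, 64.9, 9.11, 16 and 167 in female naturals (log2 -5.20 ± 1.045, edgeR adjusted p = 0.000551). Cyp4a12a, the fatty acid and arachidonic acid ω-hydroxylase of male mice, read 613, 552, 623, 645 and 711 in male naturals and 3.03, 0, 0, 0 and 11.7 in female naturals. Cyp4a12a was thus at 0 in some female naturals and not in others, whereas the lowest female natural of Cyp2d9 read 9.11. Summed over the 4 listed male-biased members, female natural 5 read 182, female IVF 5 233 and female IVF 6 297, within a female range of 10.8 to 297, against 1340 to 3190 in males. Summed over the 13 listed female-biased members, the male IVF library 3 read 792 against 36.4 to 122 in the other male libraries and 2940 to 8370 in females. That library also had 14.71 CPM of Xist, few counts at its depth, against at most 2.81 in the other male libraries. Ddx3y was detected in all male IVF libraries (38.62 to 74.86 CPM) and was lowest in library 3. Eif2s3y read 7.36 CPM there against 38.8 to 61.76 in the other male IVF libraries. Without male IVF 3, Cyp3a41a in male IVF lay at 0 to 1.21 normalised CPM. The fitted female-minus-male difference of Cyp3a41a in IVF, which then depends on the prior count, was 11.58 in place of 8.42. Left out, male IVF 3 changed no count of called members by over 1.5 times. The source of the female-type transcripts in male IVF 3 was not tested.

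In male liver, 6 members were upregulated and 8 downregulated in the IVF group among 51 tested, against 13.9% and 17.2% of 11973 genes, so the share of members called was below that of all genes. Upregulated were Cyp2b9, Cyp2c40, Cyp2c67, Cyp2j5, Cyp3a13 and Cyp4v3, and downregulated were Cyp2d9, Cyp2d10, Cyp2d13, Cyp2d22, Cyp2u1, Cyp4b1, Cyp4f16 and Cyp4f17. Groups did not overlap for 10 members, against 27.0% of genes. The median log2 fold change of the tested members was 0.43, against -0.01 over all genes. Without male IVF 3 the split was again 6 and 8, and without IVF 4 it was 13 and 8. With library totals and no scaling factor it was 4 and 9, the median of all genes then being shifted to -0.31.

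Among the Cyp2c members, whose substrates include arachidonic acid, retinoids and drugs, 2 of 12 tested rose and none fell in male IVF liver (median log2 fold change 0.63). Cyp2c67 read 292, 400, 459, 360 and 363 normalised CPM in male naturals and 1040, 1600, 730, 797 and 915 in male IVF. Every IVF library was above every natural (log2 fold change 1.45 ± 0.218, edgeR adjusted p = 0.000228). Cyp2c40 read 2.6, 2.91, 3.31, 2.88 and 2.48 in male naturals and 14.8, 9.69, 52, 10.9 and 15.8 in male IVF. It was again higher in every IVF library, with IVF 3 the highest (2.53 ± 0.351, adjusted p = 0.000137), and stayed called in each fit that left out a library. The constitutive Cyp2c29 read 591, 1350, 1380, 966 and 1040 against 1930, 1090, 1340, 1210 and 1890, with overlap (0.49, adjusted p = 0.116). Of the 31-base words of Cyp2c40 and Cyp2c67, 84.5% and 67.6% occur in some other gene, and 53.3% and 55.5% in the other of these 2, which leaves the assignment of reads between copies uncertain.

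Among the Cyp2b members, targets of CAR, Cyp2b9 read 0.124, 0.824, 0.799, 0.36 and 0.662 normalised CPM in male naturals and 1.01, 2.42, 33.1, 8.99 and 0.751 in male IVF. The groups overlapped at the low end and IVF 3 and IVF 4 carried the difference (log2 fold change 3.35 ± 0.932, edgeR adjusted p = 0.0146). It was 2.64 without IVF 3, still called, and was not called without IVF 4 (adjusted p = 0.0528), while without IVF 1 it did not pass the filter on low counts. With no such filter on any gene the adjusted p was 0.0535. Even at its highest in males, Cyp2b9 stayed below the 457 to 571 of female naturals. The CAR-inducible Cyp2b10 read 0.866, 6.78, 5.59, 3.4 and 1.99 in naturals and 11.4, 0, 4.73, 8.1 and 4 in IVF, with overlap and no call.

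The Cyp2d members, which include steroid hydroxylases, moved the other way in male liver, with 4 of 7 tested downregulated and a median log2 fold change of -0.93. Cyp2d9 read 2130, 1990, 2080, 2200 and 2310 normalised CPM in naturals and 886, 545, 513, 797 and 1350 in IVF. All 5 IVF libraries lay below all 5 naturals (-1.38 ± 0.232, edgeR adjusted p = 0.00043). Its median share of the summed members was 8.3% in male naturals and 2.7% in male IVF. Cyp2d22 read 377, 400, 437, 411 and 404 against 201, 197, 208, 214 and 240, a fall by 0.93 with little spread (SE 0.142, adjusted p = 0.00025). Cyp2d10 read 1030, 901, 942, 911 and 1040 against 559, 440, 461, 592 and 924, and only IVF 5 reached the natural range (-0.69 ± 0.197, adjusted p = 0.0132). Cyp2u1, a fatty acid hydroxylase of the same family, read 72.6, 47.7, 44.2, 49.9 and 48.9 against 29.4, 9.69, 0, 8.49 and 31.1 (-1.47 ± 0.416, adjusted p = 0.0171).

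In the single-member subfamily Cyp2e, the naturals read 6020, 5330, 5920, 6550 and 6480 normalised CPM of Cyp2e1 and the male IVF libraries 6820, 9600, 7140, 7980 and 9160. The groups did not overlap, but the difference was under the fold limit (log2 0.43 ± 0.161, edgeR adjusted p = 0.0474). Cyp3a11 read 3350, 3440, 3740, 3640 and 1800 in naturals and 7600, 4340, 4660, 2540 and 6700 in IVF, with overlap (0.70 ± 0.267, adjusted p = 0.0521). Cyp3a13 was the 1 of 4 tested Cyp3a members that was called, at 78.2, 64.9, 67.2, 67.8 and 68.8 in naturals and 78, 120, 265, 447 and 152 in IVF (1.61 ± 0.387, adjusted p = 0.00737). Its lowest IVF library fell just inside the natural range. Cyp2j5 rose from 510, 570, 615, 591 and 500 to 792, 1140, 931, 635 and 840, without overlap (0.65 ± 0.176, adjusted p = 0.0101).

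Among fatty acid ω-hydroxylases of family 4, none of the 6 tested Cyp4a members was called in male liver (median log2 fold change 0.66) and 2 of 5 Cyp4f members were downregulated. The PPARα targets Cyp4a10 and Cyp4a14 varied widely within groups, Cyp4a10 from 92.4 to 579 normalised CPM in naturals and from 165 to 1230 in IVF (log2 fold change 0.84, edgeR adjusted p = 0.372). Cyp4a12a read 613, 552, 623, 645 and 711 in naturals and 904, 990, 770, 612 and 1100 in IVF, a difference under the fold limit (0.48 ± 0.177, adjusted p = 0.044). Cyp4f17 fell from 16.8, 21.7, 19.4, 15.3 and 20.5 to 8.33, 7.26, 14.2, 13.2 and 7.51, without overlap (-0.96 ± 0.222, adjusted p = 0.00372). Cyp4v3, an ω-hydroxylase of medium-chain fatty acids, read 635, 465, 512, 547 and 476 against 702, 1020, 933, 569 and 1100 (0.72 ± 0.195, adjusted p = 0.00969), and only IVF 4 lay within the natural range.

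In female liver, 4 members were upregulated and 13 downregulated in the IVF group among 55 tested, against 21.6% and 17.8% of 12525 genes. Upregulated were Cyp2d10, Cyp2d40, Cyp4b1 and Cyp4f13. Downregulated were Cyp2c38, Cyp2c39, Cyp2c40, Cyp2c54, Cyp2c67, Cyp2j5, Cyp2j6, Cyp2r1, Cyp3a11, Cyp3a25, Cyp3a59, Cyp4a32 and Cyp4v3. Groups did not overlap for 10 members, against 29.6% of genes, and the median log2 fold change of the members was -0.05, against -0.01 over all genes. With library totals and no scaling factor, 9 were up and 6 down, the median of all genes then being shifted to 0.31. Without natural 5, IVF 5 and IVF 6, the females with the highest male-biased sums, 3 were up and 14 down.

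Of the 12 tested Cyp2c members, 5 fell and none rose in female IVF liver (median log2 fold change -0.81). Cyp2c39, a retinoic acid hydroxylase, read 1030, 777, 1100, 1020 and 1150 normalised CPM in naturals, and the 6 IVF libraries had a lowest value of 467, a median of 500 and a highest of 654. The groups did not overlap (-0.95 ± 0.143, edgeR adjusted p = 7.83e-05). Cyp2c67 read 193, 96.2, 405, 358 and 383 in naturals and 60.2, 72.4 and 106 at the lowest, median and highest IVF library. Only natural 2 fell within the IVF range (-1.90 ± 0.310, adjusted p = 0.000272). Cyp2c38 read 316, 180, 310, 228 and 434 in naturals and 104, 136 and 168 in IVF, again without overlap (-1.12 ± 0.211, adjusted p = 0.000454). Cyp2c40 read 372, 311, 1360, 1260 and 204 in naturals and 146, 245 and 369 at the lowest, median and highest IVF library, with overlap (-1.45 ± 0.50, adjusted p = 0.0332), and was called in 5 of the 11 fits that left out a library.

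Cyp2j5 read 771, 671, 1040, 1020 and 999 normalised CPM in female naturals and 390, 441 and 571 at the lowest, median and highest IVF library, without overlap (log2 fold change -0.95 ± 0.155, edgeR adjusted p = 0.00014). Cyp3a11 read 6100, 4880, 3360, 3560 and 4460 in naturals and 1010, 2610 and 4200 in IVF. The groups overlapped (-0.81 ± 0.285, adjusted p = 0.0289), and the call held in 6 of 11 fits without a library. The female-specific Cyp3a41a read 366, 333, 544, 656 and 102 against 146, 405 and 670 and was not called (-0.01, adjusted p = 0.994). Cyp2b9 read 457, 558, 529, 531 and 571 against 278, 406 and 621 (-0.35, adjusted p = 0.0985), and Cyp2a4 read 934, 1330, 822, 689 and 493 against 829, 1160 and 1900 (0.57 ± 0.257, adjusted p = 0.0777). These 3 female-high members thus gave no call between IVF and naturals in females.

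Cyp2d10 was upregulated in female IVF liver, from 460, 608, 449, 505 and 408 normalised CPM in naturals to 743, 830 and 945 at the lowest, median and highest IVF library, without overlap (log2 fold change 0.79 ± 0.136, edgeR adjusted p = 0.000212). Cyp4f13 rose from 19.7, 34.5, 28.5, 21.2 and 29.9 to 45.6, 68 and 77.9, also without overlap (1.23 ± 0.177, adjusted p = 5.7e-05). Cyp2d40 rose from 12.7, 11.9, 7.68, 5.3 and 10.9 to 13.3, 29.9 and 48.4 (1.64 ± 0.358, adjusted p = 0.00221). The male-specific Cyp2d9 read 30.3, 64.9, 9.11, 16 and 167 in female naturals and 9.82, 34.1 and 294 in female IVF, a spread that covered any difference (0.80 ± 1.131, adjusted p = 0.588). Cyp4a32 fell from 114, 65.5, 79.4, 86.7 and 118 to 18.9, 34.8 and 59.1, the only called member of 4 tested in the Cyp4a subfamily (-1.35 ± 0.306, adjusted p = 0.00286). Cyp2r1, a vitamin D 25-hydroxylase, was low throughout, at 8.49, 5.27, 6.26, 5.14 and 5.47 in naturals and 2.26, 3.06 and 3.78 in IVF, and fell by 1.00 (SE 0.239, adjusted p = 0.00253). Cyp2e1 read 8900, 8860, 9680, 10200 and 12500 in naturals and 4650, 7020 and 8770 in IVF. The Cyp2e1 groups did not overlap, with a difference under the fold limit (-0.54 ± 0.166, adjusted p = 0.0128).

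Beside these results, summed markers of other cells also differed between the female groups. Stellate cell markers summed to 335 to 443 normalised CPM in female naturals and 159 to 286 in female IVF, and erythroid markers to 468 to 760 and 155 to 381. Kupffer cell markers overlapped, at 133 to 301 and 141 to 309. Of the 11 tested hepatocyte markers, 6 were downregulated in female IVF liver, against 17.8% of all genes. In male IVF liver 5 were upregulated, against 13.9% of all genes. In male liver, stellate cell markers summed to 151 to 222 in naturals and 212 to 358 in IVF, with Dcn and Rgs5 upregulated and Col3a1 downregulated. Pericentral hepatocyte markers summed to 1110 to 1250 and 813 to 1050 in male liver. In female liver these sums overlapped, at 1540 to 2230 in naturals and 1710 to 2170 in IVF. Erythroid sums of male liver overlapped as well, at 269 to 500 and 417 to 883. The Kupffer cell sums of male liver overlapped, at 129 to 216 and 142 to 274. Of 8 Kupffer cell markers, 4 were upregulated there, against 13.9% of all genes. All genes of the lists above were detected in every liver group. Germ cell markers summed to 0.399 to 94.3 normalised CPM in male naturals and 0 to 4.24 in male IVF. Among these markers, Prm2 read 23.79, 4.97 and 60.73 CPM in male naturals 1, 4 and 5, and 0 in naturals 2 and 3. The part of these markers in the P450 values was not tested.

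Set side by side, the changes in the 2 livers ran in opposite directions for most members. Of 47 members tested in both, 36 had opposite signs, and all 6 that were called in both (Cyp2c40, Cyp2c67, Cyp2d10, Cyp2j5, Cyp4b1 and Cyp4v3) were opposite. Over all genes the pattern was the same, with 82.2% of 11825 genes opposite in sign and 99.7% of the 2917 called in both, so it was not particular to the members. The test of the difference (female change minus male change) called 10 members higher and 18 lower of 60, against 27.7% and 25.2% of 13073 genes. The median of this difference was -0.93 for the members and 0.01 for all genes. Lower were 6 of 13 Cyp2c, 4 of 8 Cyp3a, all 3 Cyp2j and 2 of 6 Cyp4a members, and higher were 5 of 7 Cyp2d and 3 of 5 Cyp4f members.

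With library totals and no scaling factor 13 were higher and 8 lower, against 5274 and 1684 of 13073 genes. The median over all genes was then shifted to 0.62. None of the Cyp3a members was called in that setting or with the GC trend removed. Cyp2c40 differed by -3.97 ± 0.694 on the log2 scale (edgeR adjusted p = 8.62e-05) and Cyp2c67 by -3.33 ± 0.395 (adjusted p = 2.22e-07). Cyp2c67 thus went from overlapping sexes in naturals to a female-minus-male difference of -3.71 ± 0.289 in IVF (adjusted p = 2.86e-09). Cyp2e1 differed by -0.96 ± 0.225 (adjusted p = 0.000701) although neither liver alone passed the fold limit. Cyp2d10 differed by 1.49 ± 0.238 (adjusted p = 8.2e-06), Cyp4f13 by 1.63 ± 0.301 (adjusted p = 5.34e-05) and Cyp4b1 by 1.95 ± 0.432 (adjusted p = 0.000408). Cyp3a11 differed by -1.50 ± 0.423 (adjusted p = 0.00441).

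**Figure D3:**
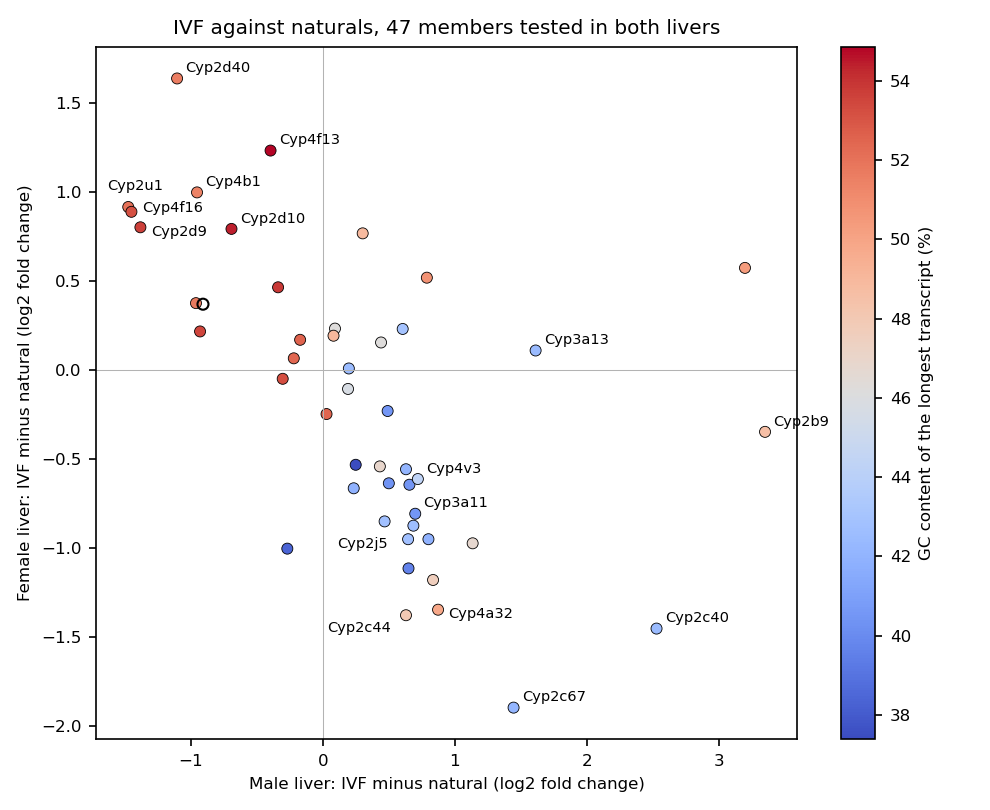
Log2 fold change of IVF against naturals for the 47 members tested in both livers, male on the horizontal and female on the vertical axis, with colour for the GC content of the longest transcript and an open circle for Cyp2d13, which had no GC value. Most points lie in the upper left (GC-rich, such as Cyp4f13 and Cyp2d10) or lower right (GC-poor, such as Cyp2c67 and Cyp2c40).

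The opposite movers differed in base composition. Across members, the log2 fold change and the GC content of the longest transcript had Pearson's r = -0.45 in male liver (50 members) and 0.65 in female liver (54 members), as a description over genes that share libraries. In male liver the 20 members under 45% GC included 5 upregulated and 0 downregulated, and the 17 at 50% or more included 0 and 7. In female liver the 24 members under 45% included 0 upregulated and 12 downregulated, and the 17 at 50% or more included 4 and 0. The same held over all genes: in male liver 28.9% of genes under 45% GC were upregulated and 1.17% downregulated, against 4.30% and 33.0% at 50% or more. In female liver these shares were 0.779% and 43.9% under 45% GC, against 42.1% and 3.32%. The Cyp2c (median 42.2% GC), Cyp3a (40.6%) and Cyp2j (43.0%) subfamilies lie on the poor side and Cyp2d (53.6%) and Cyp4f (52.8%) on the rich side.

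The trend of level on GC was fitted in each library to deviations from the gene means of its own table. Slopes within a table must therefore balance each other, so opposite signs within a liver are partly built in. Slopes cannot be compared between the sexes. Its slope was 0.338 to 0.457 log2 units per 10 GC points in male naturals and -0.792 to -0.145 in male IVF, and -0.608 to -0.257 in female naturals and 0.185 to 0.585 in female IVF. With each library's trend removed, 7 members were called in male liver, against 11.2% of genes higher and 5.48% lower. These were Cyp2b9, Cyp2c40 (log2 2.18 ± 0.399, edgeR adjusted p = 0.00255) and Cyp2c67 (1.03 ± 0.172, adjusted p = 0.00154) upwards, and Cyp2d9 (-0.85 ± 0.174, adjusted p = 0.00468), Cyp2d13, Cyp2u1 and Cyp4f17 downwards, Cyp2d13 being uncorrected for want of a GC value. In female liver 7 were called, against 8.39% of genes higher and 10.1% lower. Cyp2c67 (-1.29 ± 0.287, adjusted p = 0.0057) and Cyp4a32 (-1.39 ± 0.315, adjusted p = 0.00691) fell, and Cyp2d40, Cyp4f13, Cyp2c37, Cyp2c70 and Cyp3a13 rose, the last 3 not having been called before. The split of calls in female liver thus turned from 4 up and 13 down to 5 up and 2 down. By subfamily, 2 Cyp2c members rose and 1 fell there and 1 Cyp3a member rose, whereas in male liver the median of Cyp4f moved from -0.40 to 0.17. Cyp3a11 (-0.11, adjusted p = 0.83), Cyp2e1 (-0.30, adjusted p = 0.184) and Cyp2c40 (-0.90, adjusted p = 0.215) were not called in female liver with the trend removed. Whether the trend arose in the tissue or in the making of the libraries was not tested.

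**Figure D4:**
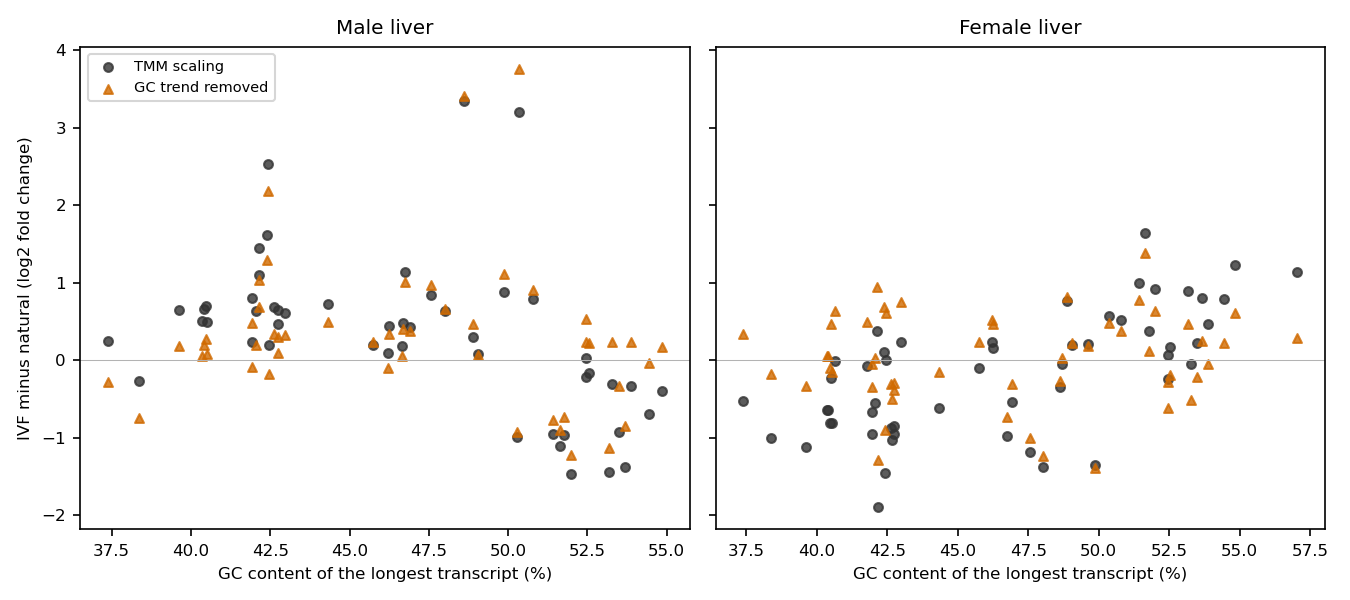
Log2 fold change of IVF against naturals (vertical axis) by GC content of the longest transcript in percent (horizontal axis), for members in male liver (left panel) and female liver (right panel), with circles for TMM scaling and triangles for the same members after each library's GC trend was removed. The circles fall with GC in males and rise with GC in females.

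Genes that act with these enzymes moved as follows. For all lists below, the shares of all genes up and down were 13.9% and 17.2% in male liver and 21.6% and 17.8% in female liver. Of all 2917 genes called in both livers, 99.7% changed in opposite directions, so mirrored changes were not particular to the genes named here. Of 22 tested regulators, 1 was upregulated and 3 downregulated in male IVF liver, and 6 and 2 in female IVF liver. Cebpa, a hepatocyte transcription factor, had a mean of 537.5 normalised CPM in male naturals and 143.7 in male IVF (log2 fold change -1.90 ± 0.256, edgeR adjusted p = 0.000119), and of 118.4 and 548.3 in females (2.21 ± 0.237, adjusted p = 1.33e-05). Ppargc1a, a transcriptional coactivator, rose by 1.71 (SE 0.280, adjusted p = 0.00037) in males and fell by 1.25 (SE 0.168, adjusted p = 3.64e-05) in females. Rxra, the partner of CAR, PXR and PPARα, fell by 0.91 (SE 0.179, adjusted p = 0.0013) in males and rose by 1.02 (SE 0.146, adjusted p = 5.76e-05) in females. Nr1i3, which encodes CAR, rose in females (1.05 ± 0.201, adjusted p = 0.000482) and was not called in males (-0.55, adjusted p = 0.171), and the difference between these changes was 1.61 ± 0.392 (adjusted p = 0.00131). Hnf4a was called in neither liver (-0.18, adjusted p = 0.399, and 0.19, adjusted p = 0.245).

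Of 9 tested electron donors, 1 was upregulated and 1 downregulated in males, and 3 and 1 in females. Por, which feeds electrons to all microsomal P450 enzymes, had means of 460.9 normalised CPM in female naturals and 867.7 in female IVF (log2 fold change 0.91 ± 0.232, edgeR adjusted p = 0.00418). In males the means were 229.6 and 404.7, with overlap (0.84 ± 0.383, adjusted p = 0.11). Cyb5a, cytochrome b5, which can pass on the second electron, rose in males from 481.3 to 913.7 (0.93 ± 0.162, adjusted p = 0.000548) and fell in females from 1190 to 551.4 (-1.12 ± 0.176, adjusted p = 0.00011), without overlap in either. Of 12 genes of haem synthesis and breakdown, 1 rose and 4 fell in males, and 4 rose and 1 fell in females. Fech, ferrochelatase, which inserts iron into haem, rose in males from 110.5 to 183.1 (0.73 ± 0.140, adjusted p = 0.00107) and fell in females from 181.4 to 103.6 (-0.82 ± 0.121, adjusted p = 7.14e-05). In the growth hormone axis, 3 of 13 rose and 2 fell in males, and 3 of 14 rose and 4 fell in females. Within it, Cux2, a repressor of male-biased genes in female liver, rose in females from 30.59 to 72.29 (1.23 ± 0.235, adjusted p = 0.000585), and the growth hormone receptor Ghr fell from 510 to 252.1 (-1.02 ± 0.170, adjusted p = 0.000163). Among members grouped by the receptor that induces them, the 4 PPARα targets gave 0 calls in males and 1 in females, the CAR and PXR targets 1 of 6 in males and 1 of 5 in females, and the AHR targets none. Igf1, a growth hormone target, rose in males (0.98 ± 0.174, adjusted p = 0.000626) and fell in females (-1.20 ± 0.167, adjusted p = 4.72e-05). Phase 2 genes gave 3 upregulated and 3 downregulated of 30 in males, and 2 and 6 in females. Transporters gave 2 and 4 of 15 in males and 2 and 3 in females, and other oxidases 3 and 4 of 19 in males and 1 and 2 of 20 in females. Of P450 genes outside families 1 to 4, 1 rose and 2 fell of 12 in males and 2 rose and 1 fell of 11 in females. Among these, Cyp8b1, the sterol 12α-hydroxylase of bile acid synthesis, fell in males from 927.9 to 306.1 (-1.59 ± 0.19, adjusted p = 6.9e-05) and rose in females from 191.6 to 512.7 (1.42 ± 0.302, adjusted p = 0.0016).

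In gonads the members were a minor part of the transcriptome and no member was a DEG. They took a mean of 0.0961% of counts in ovary naturals and 0.015 to 0.0203% in the naturals of the testis tables. The tested members numbered 18 in E18.5 testis, 24 at 12 weeks, 22 at 39 weeks, 27 in F2 testis and 16 in ovary, and edgeR called 0 in each. Over all genes, 0.221%, 0.199%, 0.00996%, 0.914% and 0.0% were called, in the same order. With an unadjusted value under 0.05 there were 2, 0, 1, 7 and 2 members. DESeq2 called 1 member in ovary, Cyp4f17, and 0 in the 4 testis tables.

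Cyp1b1, an extrahepatic enzyme that hydroxylates oestradiol and aryl hydrocarbons, was among the 3 highest members in every gonad table. In E18.5 testis it read 58, 65.4, 78.9 and 64.9 normalised CPM in naturals and 62.2, 79.4 and 109 at the lowest, median and highest IVF library (log2 fold change 0.35 ± 0.147, edgeR adjusted p = 0.241). In 12-week testis it read 24.2, 26, 26.3, 25.1 and 28.5 against 31, 33, 26, 27 and 31.9, with overlap (0.20, adjusted p = 0.389). In ovary it read 472, 452, 348 and 341 against 357, 537, 277, 317 and 446 (-0.06, adjusted p = 0.927). Cyp1b1 thus overlapped between the groups in these 3 tables, and its level in ovary was several-fold that in testis on scales set table by table. Cyp2d26, of the steroid-metabolising 2D group, was near 0 in E18.5 testis and ovary and read 22.7 to 25.8 in the naturals and 21.6 to 29.7 in the IVF libraries of F2 testis (0.08, adjusted p = 0.728).

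In ovary, Cyp4f18, a leukotriene ω-hydroxylase of myeloid cells, read 83.4, 279, 284 and 404 normalised CPM in naturals and 1750, 291, 370, 659 and 81.7 in IVF. It covered a wide range in both groups with IVF 1 far above the rest (log2 fold change 1.27 ± 0.817, edgeR adjusted p = 0.594). Cyp4f17 read 17.4, 23.2, 16.5 and 17.7 against 53.6, 54.3, 14.7, 38.5 and 54. Of its IVF libraries 4 lay above all naturals and IVF 3 lay below them (1.20 ± 0.343, adjusted p = 0.374). Without IVF 3 it was called.

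In F2 testis, the member closest to a call was Cyp2c55, a CAR and PXR target that metabolises arachidonic acid. It read 15.7, 13, 17.2, 15 and 15.3 normalised CPM in naturals and 8.44, 11.2 and 13.6 at the lowest, median and highest of 7 IVF libraries. The overlap was at natural 2 only, and the change passed the test but not the fold limit (log2 fold change -0.46 ± 0.104, edgeR adjusted p = 0.0253). Cyp4f39, an acyl ω-hydroxylase known from skin lipids, read 27.9, 25.1, 25.2, 29.9 and 35.5 in naturals and 22.5, 23.4 and 27 in IVF (-0.28 ± 0.083, adjusted p = 0.103).

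The share of all counts taken by the members was compared by an exact two-sided permutation test in each of the 7 tables. In F2 testis it was 0.0175% ± 0.000733 (SD, n = 5) in naturals and 0.0148% ± 0.000647 (SD, n = 7) in IVF. The ranges did not overlap, at 0.0168 to 0.0187% and 0.014 to 0.016% (exact permutation p = 0.00253, Benjamini-Hochberg adjusted p = 0.0177 over the 7 comparisons), with each IVF animal below each natural. The largest p in an exact permutation test that left out 1 library was 0.00606. Naturals 1 and 2 stood apart in Alb, a hepatocyte marker, at 14.12 and 15.72 CPM against at most 0.08 in the other F2 testis libraries. They were also closer to each other in counts (chi-square per degree of freedom 1.77) than most pairs of the table (median 4.94), as were IVF 3 and 4 (1.39). Without naturals 1 and 2 the means were again 0.0175% and 0.0148%, and the exact permutation p was 0.0167 with 3 naturals and 7 IVF. In the other 6 tables the adjusted value was 0.571 each. The means were 2.90% in naturals and 2.71% in IVF in male liver, 2.94% and 2.79% in female liver, and 0.0961% and 0.133% in ovary, where IVF 1 stood at 0.2476%.

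**Figure D5:**
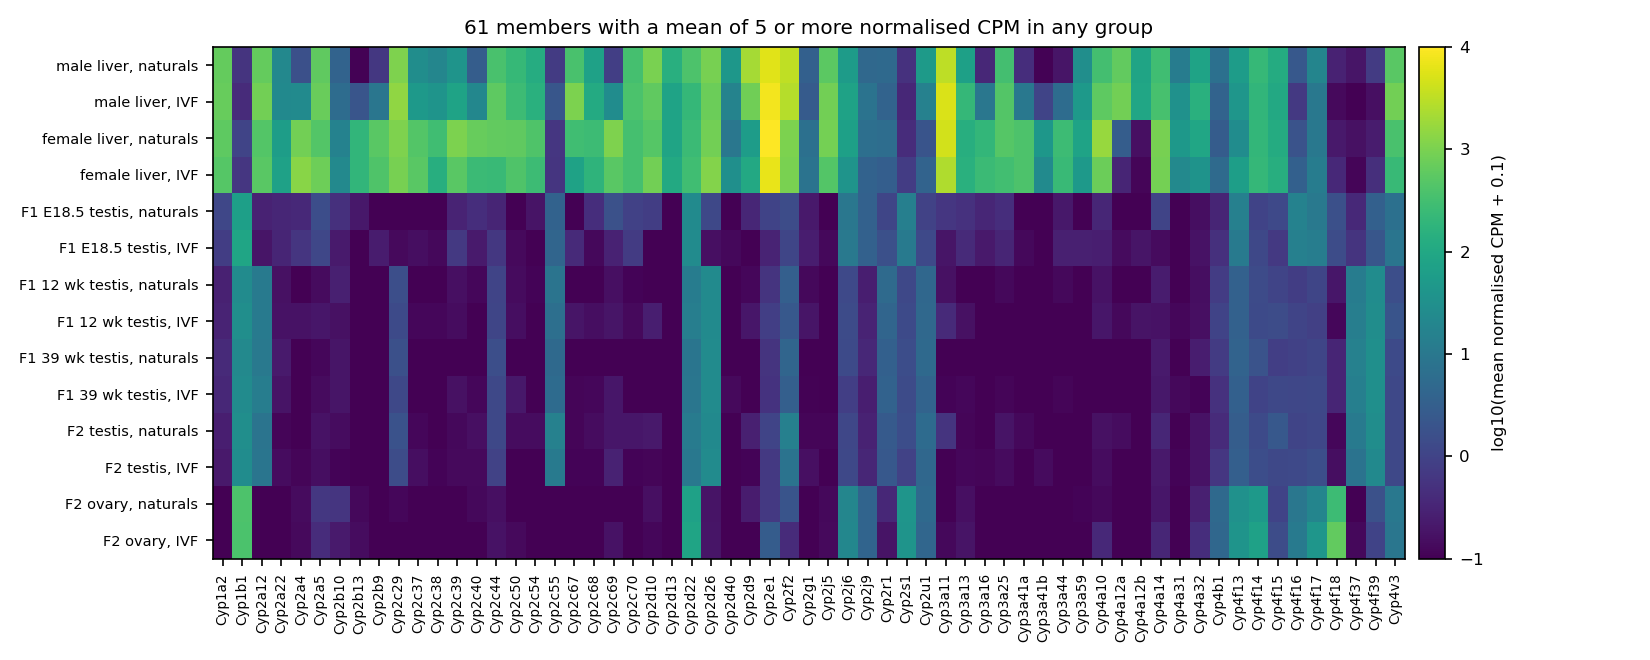
Mean level of the 61 members that reached 5 normalised CPM in any group, as log10 of the mean plus 0.1 (colour), with the 14 groups as rows and the members as columns. Most members stand out in the 4 liver rows, whereas Cyp1b1, Cyp2d22, Cyp2d26, Cyp4f16, Cyp4f18 and Cyp4f39 are the high entries of the gonad rows.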

How the data were processed

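RNA-seq counts per gene were analysed from 72 mouse libraries in 7 tables (F2 liver of each sex, F1 and F2 testis, F2 ovary). Per the labels, poly(A) RNA was made into stranded libraries, and per the submitters' processing notes the authors used Trimmomatic 0.32, STAR 2.3.0e, featureCounts 1.5.0 and the genome build mm10. The deposited counts are raw whole numbers. In liver, 71.8 to 94.3% of values from 1 to 20 were even, so each mate of a pair appears to have been counted, and precision is lower than the totals (543745 to 90441392) show. Libraries sharing a replicate number were not paired.

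Genes were filtered by group with filterByExpr, scaled by TMM and tested by the quasi-likelihood method of edgeR 4.0.16 in R 4.3.3 (limma 3.58.1), with Benjamini-Hochberg adjustment over all genes. Each table was fitted alone, and the 4 liver groups also together for the sex contrasts and for the difference between the female and male changes. SE is the log2 fold change over the root of the F statistic. Alternatives were DESeq2 1.42.0, other scalings and filters, a replicate block, removal of each library's GC trend (lowess, span 0.3) and leaving out libraries. The scripts were tested on simulated data. The share of counts on members was compared by exact two-sided permutation.

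Named members were, in each liver contrast, the 12 called members of smallest adjusted p and 15 fixed by name, in gonads all called members and the 3 of highest mean, and any that a count of 5 or fewer rests on. From other lists, up to 4 genes were named by adjusted p. All called liver members are listed. Nr1i3, Hnf4a, Cux2 and Cyp2c69 were chosen after their values were seen. The members and lists were chosen with earlier results of these data known. Promoters came from RefSeq (GRCm38.p6).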

Additional observations from a re-analysis of the deposited data

Results flagged for a closer look

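Within groups of 4 to 10 libraries, a single library stood apart from the rest (Dixon's ratio) in 18 of 192 groups of values of members, shares and Xist, where chance at 1 in 20 gives 9.6. The male IVF liver library 3 accounted for 7 of the members, at 113 normalised CPM of Cyp2a4, 9.45 of Cyp2b13, 33.1 of Cyp2b9, 94.5 of Cyp2c38, 225 of Cyp2c39, 52.0 of Cyp2c40 and 47.3 of Cyp3a41a. Its Xist level stood apart as well, at 14.71 CPM. All of these members are higher in female than in male liver, and the source of this signal was not tested. The other libraries that stood apart in male liver were IVF 2 for Cyp2r1 (0.0 normalised CPM), natural 1 for Cyp2u1 (72.6) and natural 5 for Cyp3a11 (1800). In female liver they were IVF 1 for Cyp2c29 (1620) and Cyp3a25 (472), IVF 6 for Cyp2c37 (406) and natural 5 for Cyp4a12a (11.7). In gonads they were F2 testis IVF 2 for Cyp4f39 (27.0), ovary IVF 4 for Cyp2d22 (55.9) and ovary IVF 1 for the share of counts on members (0.2476%).

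The change from naturals to IVF differed between female and male liver for 28 of 60 tested members by edgeR's interaction test. Of these, 10 were higher and 18 lower, against 27.7% and 25.2% of 13073 genes tested, so such differences were not particular to the members. In log2 units the female-minus-male difference of the changes was negative for Cyp4a12a (-4.06), Cyp2c40 (-3.969), Cyp2b9 (-3.473), Cyp2c67 (-3.327), Cyp4a32 (-2.199), Cyp2j5 (-1.584), Cyp3a11 (-1.499), Cyp4v3 (-1.321), Cyp2j6 (-1.313), Cyp3a25 (-1.127) and Cyp2e1 (-0.963). It was positive for Cyp4b1 (1.953), Cyp4f13 (1.63), Cyp2d10 (1.49) and Cyp2d22 (1.153). Cyp4a12a was near 0 in most females, so its value depends on few counts there.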

How the results depend on the processing

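Of 3397 values of named genes set against their main value, 3286 kept direction and side of the threshold, 75 lost it, 35 gained it and 1 reversed. With at least 10 counts in every library, called members numbered 7 in male liver, 16 in the sex contrast of naturals and 18 in that of IVF, since fewer genes were tested. With the GC trend removed they numbered 7 in male liver, 7 in female liver and 14 for the interaction. For the interaction, 5 were higher and 9 lower, against 1934 and 2624 of 13073 genes. Cyp3a25 in female liver turned to 0.056. With no filter female liver had 11. Ovary had 1 by DESeq2 and F2 testis 1 with no fold limit. As a share of hepatocyte marker counts, the member share of female liver changed by 3.48 points (exact permutation p = 0.165), the opposite direction. Leaving out libraries gave 0 to 1 members in E18.5 testis (Cyp4f13, without natural 1) and in ovary (Cyp4f17, without IVF 3), and natural-to-IVF differences in share of 0.000295 to 0.000795 points at 12 weeks and -0.000235 to 0.00128 at 39 weeks. Calls held in every such fit for 10 of 14 members in male and 10 of 17 in female liver. The numbers shared by groups did not pair the libraries (same-number correlations -0.32 to 0.38), and with a replicate block 13 members were called in male and 18 in female liver, 29 for the interaction, 35 and 30 in the sex contrasts and 0 in gonads. Settings without scaling factors, without libraries that stand apart or with the closest naturals summed were chosen after seeing the data. Beyond fewer genes or libraries tested, the cause of these shifts was not tested. Depth limits members near 0, and the shallowest liver library had 543745 counts.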
